A study of Mus musculus with 4 samples.

Results

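The ATF4-CHOP transcription factors and effectors are 10 genes of the integrated stress response: Atf4, Ddit3 (which encodes CHOP), Trib3, Chac1, Atf3, Atf5, Ppp1r15a, Sesn2, Cebpb and Nupr1. They were chosen by gene name, with earlier results of these data known. Every non-control probe whose RefSeq accession maps to 1 of them was taken. That gave 12 probes for 10 genes, 2 each for Atf4 and Atf5 and 1 for each other gene, among 16524 named genes with a measurable probe. All 12 probes were well above background on all 4 arrays, so no gene of the 10 was lost to the filter on dim probes. RNA came from the cerebellum of C57BL/6 mice at postnatal day 28, raised under specific pathogen-free conditions. The 2 control samples came from Derlin-2flox/flox mice. The 2 KO samples came from crosses of Derl2flox/flox mice with mice that express Cre recombinase from the nestin promoter. The nestin promoter is a driver for neural precursor cells. The labels do not give the full genotype of the KO mice, and do not say whether the control mice carried Cre. Each sample was hybridised to 1 one-colour Agilent array.

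When misfolded protein builds up in the endoplasmic reticulum (ER), the kinase PERK phosphorylates the translation factor eIF2, which slows most protein synthesis but favours translation of the ATF4 message. ATF4, a basic leucine zipper transcription factor, then raises genes for amino acid supply and redox balance together with further transcription factors, among them CHOP, ATF3 and C/EBP-beta, with which it can pair. Because ATF4 is controlled in large part at translation, the messages of its targets are commonly read in place of its own. Derlin-2, the protein removed in the KO mice, takes part in moving misfolded proteins out of the ER for degradation.

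On the arrays, 66.4% to 69.4% of non-control spots were well above background and 0 were saturated. All 4 arrays lay on 1 slide, controls at positions 1 and 2 and knockouts at positions 3 and 4, so slide position and group cannot be told apart. The targeted gene Derl2 had a log2 signal of 2.13 and 2.20 in the controls against 0.81 and 0.70 in the knockouts on its brighter probe, in the direction of the labels. Of the markers of cerebellar neurons, 10 of 10 granule cell and 10 of 10 Purkinje cell markers were kept. The same filter kept 11 of 12 choroid plexus and 12 of 12 microglia and macrophage markers, so being kept does not identify the labelled tissue. Nothing in the labels says more of the replicates than their numbers, so every p-value given here measures only the spread between these 4 samples. With 2 arrays per group that number limits the precision of each value.

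Of the 10 genes, 9 had a higher mean in KO than in control and 1, Nupr1, had a lower mean. For 7 of them, Trib3, Chac1, Atf3, Ddit3, Atf5, Cebpb and Ppp1r15a, both KO arrays lay above both control arrays. Over all 16524 genes, 36.1% had a difference above 0 and 13.8% had both KO arrays above both controls, while 32.1% had both KO arrays below both controls; 0 of the 10 genes showed that last order. The median log2 difference of the 10 genes (KO minus control, brightest probe of each gene) was 0.39, beside −0.06 over all genes. The differences of single genes ran from −0.14 for Nupr1 to 1.42 for Trib3. In whole tissue, a change in the number of cells that express a gene and a change of its RNA per cell cannot be told apart.

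None of the 10 genes passed the threshold of the test over all probes. Of 37516 probes tested with limma, 0% had a Benjamini-Hochberg adjusted p under 0.05, and 14% (5265 probes) had an unadjusted p under 0.05. Among the 10 genes, 3 had an unadjusted p under 0.05 and were higher in KO, Trib3, Chac1 and Atf3, and 0 were lower; over all genes the shares were 3.16% higher and 5.65% lower. Over all probes kept the balance was the opposite, with 3316 higher (8.84%) and 1949 lower (5.2%); of the 13244 probes with no gene name, 18.6% were higher and 4.92% lower at that limit. The count of 3 was 6 without control replicate 2, 3 without control replicate 1, 1 (Atf3) without KO replicate 1 and 2 (Ddit3 and Atf3) without KO replicate 2; the shares of all genes in these 4 fits were 2.52%, 2.06%, 3.17% and 2.57%. Trib3, Chac1 and Atf3 were also the 3 of the 10 that were at least 2-fold higher with separate groups, an order and size seen in 0.327% of all genes. An exact permutation of 2 arrays against 2 cannot give a two-sided share below 33.3%, so single genes have no permutation test here.

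**Figure D1:**
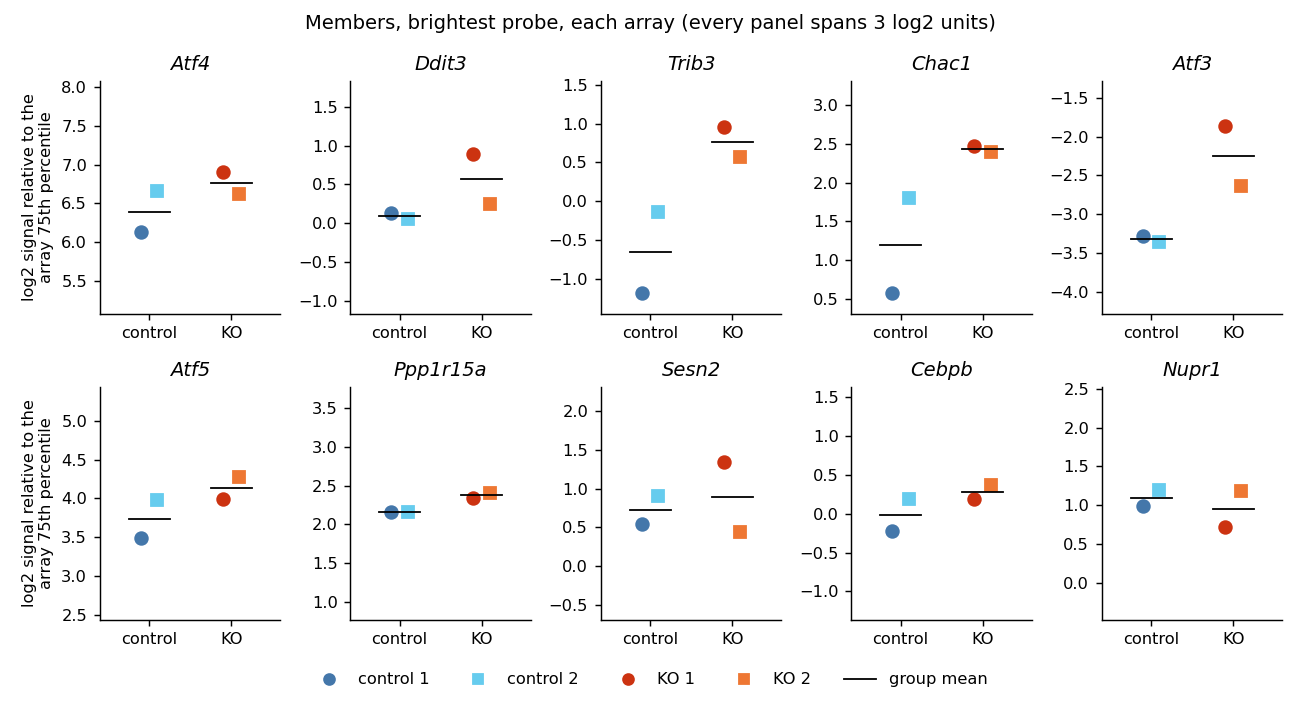
Log2 signal relative to the 75th percentile of the array (y axis, the same number of log2 units in every panel, centred on the mean of the gene) for the brightest probe of each of the 10 genes, with control and KO on the x axis. Points are single arrays and bars are group means. Trib3, Chac1 and Atf3 have the widest gap between groups, from −0.66 to 0.76, from 1.19 to 2.43 and from −3.32 to −2.25, while the points of Atf4, Sesn2 and Nupr1 overlap between groups.

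Promoter sequences are shown for Trib3, Chac1 and Atf3, which had the 3 largest differences, and for Nupr1, whose promoter holds the same motif as those of Chac1 and Atf3 but whose mean was lower in KO. Each is the 250 bases before the annotated transcription start, 5′ to 3′ along the gene, from RefSeq on build GRCm38.p6. Capitals mark a match to the C/EBP-ATF composite element, the kind of site to which ATF4 binds with a C/EBP partner, searched on both strands as TGATGNAA.
Trib3, chr2:152344061-152344310, minus strand: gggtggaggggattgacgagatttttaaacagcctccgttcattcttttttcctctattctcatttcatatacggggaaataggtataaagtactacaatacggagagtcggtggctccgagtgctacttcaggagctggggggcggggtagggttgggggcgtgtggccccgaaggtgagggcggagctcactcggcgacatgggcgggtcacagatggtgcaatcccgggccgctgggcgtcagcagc
Chac1, chr2:119350992-119351241, plus strand: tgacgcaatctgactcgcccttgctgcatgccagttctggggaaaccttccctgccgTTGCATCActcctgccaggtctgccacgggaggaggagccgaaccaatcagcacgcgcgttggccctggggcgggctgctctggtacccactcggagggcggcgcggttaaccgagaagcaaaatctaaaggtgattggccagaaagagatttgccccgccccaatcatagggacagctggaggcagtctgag
Atf3, chr1:191183334-191183583, minus strand: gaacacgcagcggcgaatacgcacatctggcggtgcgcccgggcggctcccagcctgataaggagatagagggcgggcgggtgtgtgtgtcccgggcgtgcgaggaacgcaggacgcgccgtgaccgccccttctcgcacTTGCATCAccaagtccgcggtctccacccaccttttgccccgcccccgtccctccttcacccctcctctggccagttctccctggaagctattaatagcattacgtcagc
Nupr1, chr7:126625471-126625720, minus strand: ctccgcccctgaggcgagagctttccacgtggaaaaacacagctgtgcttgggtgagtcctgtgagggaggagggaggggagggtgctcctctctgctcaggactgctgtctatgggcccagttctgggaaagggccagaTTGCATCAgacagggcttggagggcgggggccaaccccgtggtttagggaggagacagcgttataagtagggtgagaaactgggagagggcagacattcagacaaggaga

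The composite element was found in 3 of the 10 genes, in each case on the strand opposite to the gene, where it reads TTGCATCA along the gene. In Chac1 it lay from 193 to 186 bases before the start. In Atf3 and in Nupr1 it lay from 110 to 103 bases before it. Of 32851 promoter windows of this length in the table, 3.45% hold such a match. The cAMP response element TGACGTCA, a site of the ATF and CREB family, was found in 1 of the 10 genes, Ppp1r15a, from 12 to 5 bases before the start, and in 1.55% of all windows. The C/EBP palindrome TTGCGCAA and the ER stress element were found in 0 of the 10 genes, beside 0.164% and 0.113% of all windows. The searched letters do not overlap between these motifs in the windows shown. A match of letters is a description only, and 6 of the 10 genes, Trib3 among them, had no match to any of the 4 motifs in this window.

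Among the transcription factors, Atf4 itself showed a small difference with overlapping groups. Its brighter probe read a log2 signal of 6.13 and 6.65 in the controls against 6.90 and 6.62 in the knockouts. Control replicate 1 stood lowest, KO replicate 1 highest, and KO replicate 2 lay just under control replicate 2. The difference was 0.37 (SE 0.22; 95% interval −0.23 to 0.97; limma adjusted p 0.50). It was 0.11 without control replicate 1 and 0.63 without control replicate 2. The other Atf4 probe read 1.16 and 1.33 in the controls against 1.72 and 1.38 in the knockouts, with a difference of 0.31 (SE 0.16); on this probe both KO arrays were above both controls, though KO replicate 2 exceeded control replicate 2 by only 0.052.

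Ddit3 encodes CHOP, a C/EBP-related factor that acts downstream of ATF4 and is known for its part in ER stress-linked cell death. Its log2 signal was 0.12 and 0.06 in the controls against 0.89 and 0.25 in the knockouts. The controls were close together, KO replicate 1 was high, and KO replicate 2 was above both controls by a small step. Relative to the control mean, Ddit3 was 1.75-fold in KO replicate 1 and 1.12-fold in KO replicate 2. The difference between groups was 0.48 (SE 0.24; limma adjusted p 0.44), and its 95% interval, −0.16 to 1.13, includes 0. It was 0.16 without KO replicate 1 and 0.80 without KO replicate 2.

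Atf3, a stress-induced factor of the ATF and CREB family that can act as a repressor, was the transcription factor with the largest difference. Its log2 signal was −3.28 and −3.35 in the controls against −1.87 and −2.63 in the knockouts. The controls differed by 0.072, less than in 66.2% of all genes, and both knockouts stood clear of them. Atf3 was 2.74-fold above the control mean in KO replicate 1 and 1.61-fold in KO replicate 2. The difference of 1.07 (SE 0.28; 95% interval 0.32 to 1.82) had a limma adjusted p of 0.29. Its signal was low: the processed signal before scaling was 81.8 and 77.2 for the controls, 208 for KO replicate 1 and 117 for KO replicate 2. After normexp background correction, which raises dim signals by an offset, its difference was 0.73.

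Atf5, a relative of ATF4 that is likewise translated under stress, was measured by 2 probes. The brighter read 3.48 and 3.98 in the controls against 3.99 and 4.28 in the knockouts, and the other read 2.65 and 3.24 in the controls against 3.30 and 3.46 in the knockouts. On both probes control replicate 1 was lowest and KO replicate 2 highest, with control replicate 2 and KO replicate 1 side by side. The differences were 0.40 (SE 0.22; limma adjusted p 0.46) and 0.44 (SE 0.23; limma adjusted p 0.46). The first was 0.16 without control replicate 1 and 0.65 without control replicate 2. On the brighter probe KO replicate 1 exceeded control replicate 2 by 0.015.

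Cebpb encodes C/EBP-beta, a pairing partner of ATF4 and CHOP. It read −0.22 and 0.19 in the controls against 0.19 and 0.37 in the knockouts, in the same array order as Atf5. The groups were separate only by the 0.0012 between KO replicate 1 and control replicate 2, and the difference was 0.30 (SE 0.18; limma adjusted p 0.50). Without control replicate 1 it was 0.092, and without control replicate 2 it was 0.50. With the arrays scaled to the median of well-measured probes, the groups of Atf5 and Cebpb overlapped and 5 of the 10 genes had separate groups. With quantile normalization or spike-in scaling the groups of Atf4 became separate as well and the count was 8. The shares of all genes with separate groups under these scalings are not given here. The median difference of all probes, −0.028 in the main fit, also moved with the scaling. It was −0.033 with scaling to the median of well-measured probes, 0.0047 with quantile normalization and 0.058 with spike-in scaling. The direction of all 10 differences was the same under each scaling.

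Among the effectors, Trib3 showed the largest difference of all 10 genes. It encodes a pseudokinase that is induced by ATF4 and CHOP and restrains ATF4 and AKT. Its log2 signal was −1.18 and −0.14 in the controls against 0.95 and 0.56 in the knockouts. Both knockouts lay above both controls, the nearest pair being 0.70 apart, but the controls themselves were 1.04 apart, a 2.06-fold gap. The difference was 1.42 (SE 0.39; 95% interval 0.37 to 2.47; limma adjusted p 0.30), or 2.67-fold. Over all alternatives tried it ran from 0.90 without control replicate 1 to 1.94 without control replicate 2, and the adjusted p ran from 0.121 to 0.58. Only 0.133% of genes had a higher difference.

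Chac1 encodes an enzyme that breaks down glutathione and is a target of the ATF4-CHOP axis. It read 0.58 and 1.80 in the controls against 2.47 and 2.39 in the knockouts. The knockouts agreed within 0.084, whereas control replicate 2 was 2.33-fold above control replicate 1 and lay nearer to the knockouts than to the other control. The difference was 1.24 (SE 0.43; 95% interval 0.095 to 2.39; limma adjusted p 0.34), or 2.36-fold. The unadjusted p of Chac1, 0.0393, was 0.052 with no filter on dim probes and 0.104 with an intensity trend and robust variances, so that its place among the 3 genes under 0.05 ended in both of these limma fits, which kept all 4 arrays. The difference was 0.63 without control replicate 1 and 1.85 without control replicate 2, with an adjusted p from 0.0692 to 0.588 over all alternatives. In all, 2 of the 10 genes, Trib3 and Chac1, had controls at least 1 apart on the log2 scale, beside 2.23% of all genes.

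Ppp1r15a encodes GADD34, the regulatory subunit that directs protein phosphatase 1 to eIF2 and so restores translation. It read 2.16 for each control, 2.34 for KO replicate 1 and 2.41 for KO replicate 2. The step was small but the spread within groups was smaller, at 0.00025 (SD, n = 2) for control and 0.045 (SD, n = 2) for KO. The difference was 0.21 (SE 0.099; 95% interval −0.057 to 0.48; limma adjusted p 0.42), or 1.16-fold, and it ran from 0.18 to 0.30 over the alternatives.

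Sesn2 and Nupr1 did not separate the groups. Sesn2 encodes sestrin 2, a stress-induced sensor of leucine that restrains mTORC1. It read 0.55 and 0.90 in the controls against 1.35 and 0.44 in the knockouts, so that the highest and the lowest array were both KO. The knockouts were 0.91 apart, more than in all but 2.11% of genes, and the difference was 0.17 (SE 0.34; its 95% interval includes 0; limma adjusted p 0.84). Nupr1, a small stress-induced nuclear protein that cooperates with CHOP and TRIB3, read 0.99 and 1.20 in the controls against 0.72 and 1.18 in the knockouts. KO replicate 1, the array on which 6 of the other genes were highest, was the lowest for Nupr1. Its difference was −0.14 (SE 0.20; 95% interval −0.68 to 0.39; limma adjusted p 0.76). Of these 2 genes, the sign of the difference turned for Sesn2 without control replicate 1 (−0.0068) or KO replicate 1 (−0.29), and for Nupr1 without KO replicate 1 (0.091).

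**Figure D2:**
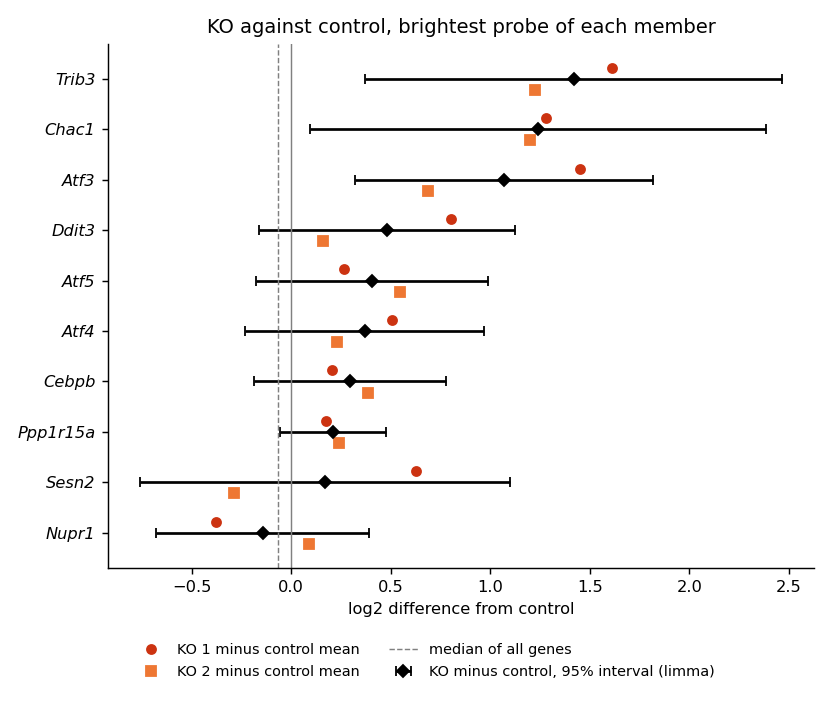
Log2 difference from control (x axis) for the 10 genes (y axis), ordered by size. Diamonds with bars are the limma difference between groups with its 95% interval, circles and squares are each KO array minus the control mean, and the dashed line is the median of all genes, −0.06. The intervals of Trib3, Chac1 and Atf3 lie above 0, and the KO arrays lie on opposite sides of 0 for Sesn2 and Nupr1.

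The arrays within a group were set side by side because the replicates differed for some of the 10 genes more than for genes in general. The median absolute difference between the controls was 0.38 for the 10 genes and 0.12 for all genes, and between the knockouts it was 0.33 and 0.15. Control replicate 1 was the lowest of the 4 arrays for 6 of the 10 genes, Atf4, Trib3, Chac1, Atf5, Ppp1r15a (by 0.00035) and Cebpb, beside 18.8% of all genes. KO replicate 1 was the highest for 6, Atf4, Ddit3, Trib3, Chac1, Atf3 and Sesn2, beside 20.8% of all genes. The knockouts were at least 0.5 apart for Ddit3, Atf3 and Sesn2, in each case with KO replicate 1 higher; 9.45% of all genes had knockouts that far apart. Array by array, the median over the 10 genes was 0.77 for KO replicate 1 and 0.54 for KO replicate 2 against control replicate 1. Against control replicate 2 these medians were 0.35 and 0.22.

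**Figure D3:**
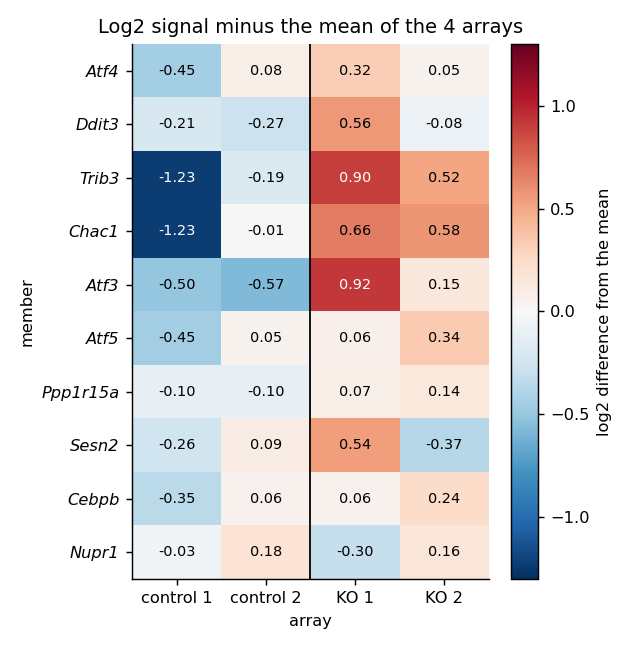
Log2 signal of each of the 10 genes (rows) on each array (columns), minus the mean of the 4 arrays, with the value printed in each cell; red is above the mean and blue below. The column of control replicate 1 is below the mean for all 10 genes, from −1.23 for Trib3 and Chac1 to −0.03 for Nupr1, and the column of KO replicate 1 holds the highest value for 6 genes.

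Markers of other tissue moved with control replicate 2. Of 12 choroid plexus markers, 11 were kept, and all 11 were highest on that array. The log2 of their summed signal was 2.95 on control replicate 1, 7.20 on control replicate 2, 3.02 on KO replicate 1 and 3.03 on KO replicate 2. Ttr, the transthyretin gene that defines this epithelium, read −1.23, 6.82, 0.33 and −2.87 on the same arrays. Without control replicate 2 the median of the 10 genes was 0.57 and 8 had both KO arrays above the 1 control left, an order met by 24.8% of all genes. Without control replicate 1 the median was 0.18 and 7 did so, beside 22.6% of all genes. An order of 1 array against 2 is easier to meet than that of 2 against 2. The part of choroid plexus RNA in the gap between the controls was not tested. A cluster of spots with high local background lay on control replicate 1, and 0 of the 12 probes had a spot in it.

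Glucocorticoid-induced genes, a list that responds to stress hormones, followed another array order. All 12 were kept, and the median of the list, after each gene was centred on its 4 arrays, was 0.20 on control replicate 1, −0.31 on control replicate 2, −0.21 on KO replicate 1 and 0.46 on KO replicate 2. Fkbp5, a standard reporter of the glucocorticoid receptor, read 0.57, −0.46, −0.08 and 1.47 in that order. Atf4, Trib3, Chac1 and Sesn2 were lower on the array of each group where this list was higher, that is on control replicate 1 and KO replicate 2. That order was looked for after the values were seen, and 21.9% of all genes share it. Its part in the spread of the 4 genes was not tested.

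The rest of the pathway was read through lists of genes upstream and downstream of ATF4. Of 16 genes for eIF2 kinases, eIF2 and its phosphatase partners, 6 were higher and 10 lower in KO, with a median log2 difference of −0.04. Over all genes 36.1% were higher, with a median of −0.06. Eif2ak3, which encodes PERK, read 0.90 and 0.82 in the controls and 1.05 on both KO arrays, a difference of 0.19. Eif2ak1, the heme-regulated eIF2 kinase, differed by −0.29 (SE 0.11), Eif2b5 by −0.27 (SE 0.11) and Eif2s2, a subunit of eIF2, by 0.36 (SE 0.16). At an unadjusted p under 0.05, 1 gene of this list was lower and 0 were higher, beside 5.65% and 3.16% of all genes.

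Among the amino acid and one-carbon targets of ATF4, 15 of 20 kept genes were higher in KO, 9 with separate groups. Of the other 5, 4 were separate in the opposite direction. Over all genes, 36.1% were higher, and 13.8% and 32.1% had separate groups above and below. The median difference of the list was 0.17. Mthfd2, a mitochondrial folate enzyme, had the largest difference of the genes named from this list, reading −1.73 and −1.06 in the controls against 0.44 and −0.67 in the knockouts, a difference of 1.27 (SE 0.45; limma adjusted p 0.34). Psph, the last enzyme of serine synthesis, differed by 0.41 (SE 0.15), and Slc6a9, a glycine transporter, by −0.33 (SE 0.11). Mthfd2 and Slc6a9 were the 2 genes of this list with an unadjusted p under 0.05, 1 in each direction. Over all genes the shares at that limit were 3.16% higher and 5.65% lower.

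The list of aminoacyl-tRNA synthetases, which load amino acids onto tRNA, was a selection and did not hold every synthetase. It also held Xpot, which encodes a tRNA exporter and not a synthetase. Of its 14 genes, 12 were higher in KO, beside 36.1% of all genes, with a median of 0.13 for the list. Xpot, at −0.15, was 1 of the 2 lower genes. Of the 14, 4 had both KO arrays above both controls and 0 had the opposite order, beside 13.8% and 32.1% of all genes. Their centred array medians were −0.16 on control replicate 1, 0.023 on control replicate 2, 0.20 on KO replicate 1 and −0.055 on KO replicate 2, so that control replicate 1 was lowest and KO replicate 1 highest, as for Atf4. Cars1 differed by 0.71 (SE 0.23), Iars1 by 0.36 (SE 0.17) and Lars1 by 0.24 (SE 0.12). Of the further ATF4 and CHOP targets, 12 of 21 kept genes were higher, 8 with separate groups, and 9 were lower, 3 of them (Gadd45a, Gadd45b and Tnfrsf10b) with separate groups. The median was 0.098. The 3 with the smallest p were Gpt2 with 0.41 (SE 0.14), Herpud1 with 0.51 (SE 0.21) and Bbc3, which encodes the cell death protein PUMA, with 0.39 (SE 0.16).

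Close relatives of the 10 genes were divided in direction. Of 22 kept relatives, 12 were higher and 10 lower in KO, 4 and 1 of them with separate groups. Over all genes, 36.1% were higher, and 13.8% and 32.1% had separate groups above and below. The median difference of the relatives was 0.0062. Trib1 and Trib2 differed by 0.016 and −0.14, beside 1.42 for Trib3. Sesn1 and Sesn3 differed by 0.015 and −0.080, and Ppp1r15b, the constitutive partner of the eIF2 phosphatase, by 0.033. The 3 relatives with the smallest p were Cebpg, a partner of ATF4, with 0.33 (SE 0.14), Cebpd with 0.56 (SE 0.26) and Nupr2 with −0.26 (SE 0.17). These differences between relatives were not tested against those of the 10 genes.

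The ATF6 and XBP1 targets of the ER, the other arms of the response to misfolded protein, were given beside them for their array order. Of 20 genes, 19 were higher in KO and 18 had both KO arrays above both controls, beside 36.1% and 13.8% of all genes. The median of the list was 0.43. For this list the controls were alike, with centred medians of −0.25 and −0.21, and the knockouts were apart, at 0.41 and 0.046. For the 10 ATF4-CHOP genes the centred medians were −0.40 and 0.019 in the controls against 0.43 and 0.16 in the knockouts. Both lists were highest on KO replicate 1, and of these 2 lists the ATF4-CHOP genes had controls on either side of 0. The 3 genes of the ER list with the smallest p were Derl3, Xbp1 and Hspa5, with differences of 1.48 (SE 0.21), 0.70 (SE 0.11) and 0.82 (SE 0.16). Herpud1 stands in both this list and that of further targets, and Dnajc3 in both this list and that of the eIF2 genes.

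**Figure D4:**
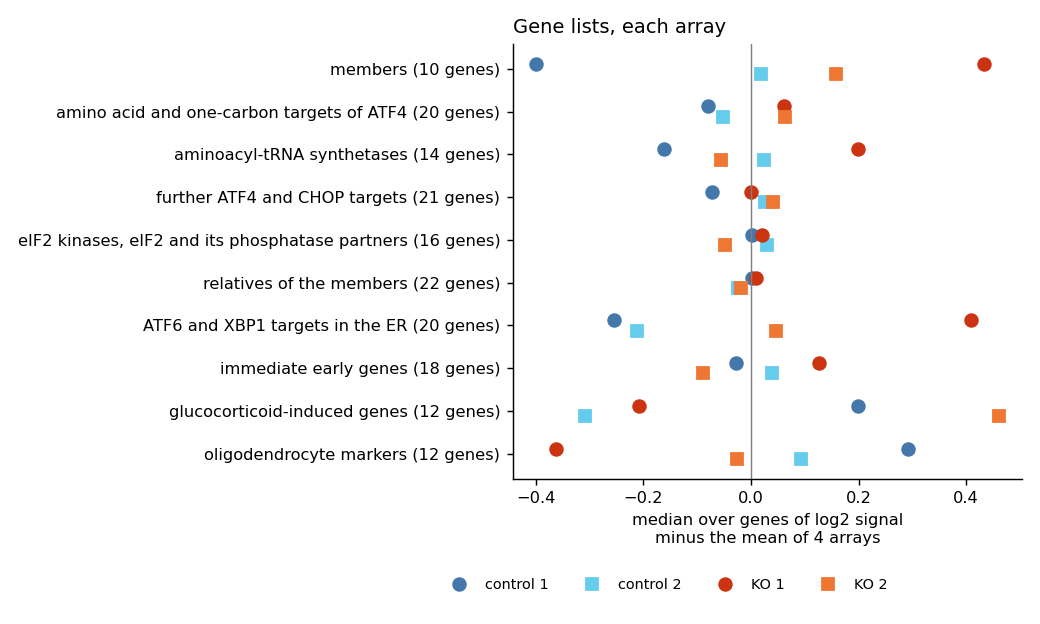
Median over the genes of each list of the log2 signal minus the gene's mean over the 4 arrays (x axis), for 10 gene lists (y axis, number of kept genes in parentheses), 1 point per array. The 10 ATF4-CHOP genes, marked as members, spread from −0.40 on control replicate 1 to 0.43 on KO replicate 1. These genes, the ER list and the amino acid list each place both controls below both knockouts. The relatives stay within −0.024 and 0.0094.

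By profile over the 4 arrays, the genes outside the list nearest to Trib3 were Ndc80, Gm4432 and Cyp2c55, at a root mean square distance of 0.092, 0.11 and 0.18 log2 units after each gene was centred on its mean. The nearest to Chac1 were Gm14061 (0.11), 4933422A05Rik (0.12) and Ndc80 (0.16). The nearest to Atf3 were Gm10536 (0.13), Gm1141 (0.14) and Manf (0.14). Manf, a secreted protein of the ER stress response, was the 1 gene among these 9 entries that also stands in a list used here, and 4 arrays allow many genes to lie this close.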

How the data were processed

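Cerebellar RNA of 2 control and 2 KO samples, 150 ng per sample labelled with Cy3 per the labels' protocols, was read on one-colour Agilent arrays. Per the file headers, Agilent Feature Extraction version 12.1.1.1 made the deposited scanner files, whose processed signal is an intensity after background correction; the submitters' processing notes name version 10.7.1.1. The deposited series table holds log2 values of the authors, centred for each probe in a manner that is not stated, used as an alternative. The flags are those of the deposited files.

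Log2 processed signal was averaged over unflagged spots of a probe, and the 75th percentile of each array was subtracted. A probe was kept where both controls or both knockouts read it well above background (37516 probes). Of the probes with a RefSeq accession, 91.9% were named through a RefSeq table of GRCm38.p6; most tRNA synthetase genes and Nupr2 carry older symbols there. The difference, KO minus control, was fitted in limma 3.58.1 (R 4.3.3) with lmFit and eBayes and no covariates, with Benjamini-Hochberg adjustment over all probes; 1 probe per gene, the brightest, stands for the gene. The steps were tested on simulated data. The 10 genes, the lists and the rule for named genes (the 10, the 3 smallest p of each list, the 3 nearest profiles) were chosen with earlier results of these data known. Eif2ak3, Trib1, Trib2, Sesn1, Sesn3, Ppp1r15b, Ttr, Gadd45a, Gadd45b, Tnfrsf10b and Xpot lie outside that rule and were named after their values were seen. Probe sequences and proteins were not used here. Alternatives are given at the end.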

Additional observations from a re-analysis of the deposited data

How the results depend on the processing

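The median difference of the 10 genes stayed between 0.37 and 0.47 under the alternatives that kept all arrays and between 0.18 and 0.57 with 1 array left out. The count with separate groups was 7 and ran from 5 to 8, with no share of all genes given for these alternatives. With an array left out it ran from 7 to 9, but then 1 array stands against 2, a weaker rule that 22.6% to 27.6% of all genes met. The count of 3 with an unadjusted p under 0.05 was 5 under normexp, 4 under spike-in scaling and 2 with no filter on dim probes (Chac1 lost), and ran from 1 to 6 with an array left out; with an intensity trend and robust variances it was 3, with Ppp1r15a in place of Chac1. Of 160 values of single genes under alternatives, 157 kept their direction and 0 passed the adjusted threshold; the sign turned for Sesn2, to −0.0068 without control replicate 1 and −0.29 without KO replicate 1, and for Nupr1, to 0.091 without KO replicate 1. With 1 array left out, Sesn2 ran from −0.29 to 0.63 and Nupr1 from −0.38 to 0.091. Over all probes, the count past the adjusted threshold, 0, became 1 each under quantile normalization, scaling to the median of well-measured probes, scaling to 7 spike-in probes and omission of patch spots, 2 under normexp and 4 under an intensity trend with robust variances, and ran from 0 to 98 with an array left out, 98 being without control replicate 2. The 3316 probes higher in KO at an unadjusted p under 0.05 became 1873 to 2640 with an array left out. Such fits take the spread of the lone array from the group with 2 arrays; the cause of these changes was not tested. No scaling moved the median difference of all probes outside −0.033 to 0.058. With all 4 arrays kept, the 3316 probes higher in KO at an unadjusted limma p under 0.05 also changed with the setting. They were 2817 under normexp, 4746 under spike-in scaling, 2983 with no filter on dim probes and 3129 with an intensity trend and robust variances. The counts among the 10 genes under these settings are to be read beside them. The shares of all genes are not given for these settings.

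The replicate number as a block left the adjusted count at 0, gave 3674 probes higher at an unadjusted p under 0.05 and 4 of the 10 genes, Atf5 in addition to the 3; deviations of same-numbered arrays correlated across probes with r = 0.12, and the labels give no shared litter or day, so the arrays share only a number.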

Other observations

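Markers of the cells that make up the cerebellum were read beside the 10 genes, and against a general lean: 63.9% of all genes had a lower mean in KO, 32.1% had both KO arrays below both controls, and the median of all genes was −0.06. Oligodendrocyte markers were lower in KO for 11 of 12 genes, 9 with separate groups, with a median log2 difference of −0.35; Opalin differed by −0.75 (SE 0.17) and Mag by −0.46 (SE 0.15), while Ermn differed by 0.37 (SE 0.10). The log2 of the summed signal of this list was 8.74 and 8.65 in the controls against 8.48 and 8.63 in the knockouts. Microglia and macrophage markers were lower for 12 of 12 genes, 6 with separate groups, with a median of −0.21. Astrocyte and Bergmann glia markers had a median of −0.090, Purkinje cell markers −0.078 and granule cell markers −0.039, with 7 of 10 genes lower in each, near the share of all genes. Red blood cell markers had a median of −0.22 over 7 kept genes, 6 of which were highest on control replicate 2. The part of any of these in the 10 genes was not tested.

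Immediate early genes, which include neighbours of Atf3 in the response to handling and activity, had a median of 0.060 over 18 genes. Of these, 2 were separate above and 4 below, beside 13.8% and 32.1% of all genes. Arc differed by −0.46 (SE 0.15) and Egr3 by −0.29 (SE 0.10), both at an unadjusted limma p under 0.05. Neither passed the adjusted threshold. At the unadjusted limit these 2 genes of the list were lower and 0 were higher, beside 5.65% and 3.16% of all genes. Egr3 was dim, with a log2 signal of −5.16 and −5.09 in the controls against −5.45 and −5.37 in the knockouts. The glucocorticoid-induced list had a median of 0.17 with 0 of 12 genes separate, and Zbtb16 read 1.39 and −0.84 in the controls against 0.36 and 2.47 in the knockouts.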
